A study of Mus musculus with 8 samples.

Results

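The genes described here encode the protein components of the cytosolic ribosome, and they were followed in skin of Adam10 knockout and wild-type mice on Affymetrix Mouse Gene 1.0 arrays. A gene was a member if a probe set carried its symbol alone and that symbol was a large-subunit (Rpl) or small-subunit (Rps) name with a number and at most a final a, x or y, or was Rpsa, Rplp0, Rplp1 or Rplp2. Where a gene had several such probe sets, the one with the highest mean was kept. This gave 53 members among 19935 genes tested, made up of 30 genes of the large subunit, 20 of the small subunit and 3 of the P-stalk. Against a list of 79 cytosolic ribosomal protein genes, 2 more were measured under symbols that the rule does not take (Fau and Rps3a1) and 24 had no probe set of their own symbol, 16 of which appear on probe sets that carry several symbols. Those 24 genes were not analysed here.

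The knockout group holds 4 skin samples of genotype Adam10 knockout, titled cKO, and the control group holds 4 skin samples labelled Adam10 wildtype. The labels name the tissue both as skin and as primary skin cells, and give no other allele, Cre line, treatment or stated age. Whether each sample is a separate animal is not stated, so the p-values measure the spread between these samples, which may be technical. Adam10, the membrane protease that was targeted, lay at 6.85, 7.00, 7.04 and 6.79 (log2 intensity) on knockout arrays 1 to 4, against 7.39, 7.33, 7.06 and 7.34 on wild-type arrays 1 to 4. The groups did not overlap, the difference was -0.36 (SE 0.11), while limma's adjusted p over all genes was 0.064. A two-sided exact permutation test gave p = 0.0286, and no lower value can come from 70 assignments.

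The cytosolic ribosome is built from ribosomal RNA and a set of proteins, each encoded by a gene active in nearly every cell. Their mRNAs begin with a run of pyrimidines, the terminal oligopyrimidine tract, through which mTOR and Larp1 govern how strongly they are translated. An array measures the amount of these mRNAs and not their translation. In mouse skin the family is known from dark-skinned mutants of Rps19 and Rps20, in which a shortage of the protein stabilises p53 in keratinocytes and raises the output of Kit ligand.

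A run of pyrimidines near the annotated start is found in most members with a matched promoter, though not in all, so the start regions of 5 of them are shown. They were chosen after the values were seen. Rps12, Rpl28, Rpl4 and Rpl6 are among the members with the smallest p-values, and Rps18 is one of the brightest. Each stretch runs 5′ to 3′ along the gene's strand, from 40 bases before to 30 bases after the start annotated by RefSeq on GRCm38.p6, and capitals mark the longest run of C and T in it.
Rps12, chr10:23787180-23787249, minus strand: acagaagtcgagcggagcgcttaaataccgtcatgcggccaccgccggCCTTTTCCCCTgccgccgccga
Rpl28, chr7:4792925-4792994, plus strand: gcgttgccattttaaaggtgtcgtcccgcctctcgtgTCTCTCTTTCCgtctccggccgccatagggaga
Rpl4, chr9:64173347-64173416, plus strand: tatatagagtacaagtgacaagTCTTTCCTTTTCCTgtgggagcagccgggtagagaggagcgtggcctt
Rps18, chr17:33955636-33955705, minus strand: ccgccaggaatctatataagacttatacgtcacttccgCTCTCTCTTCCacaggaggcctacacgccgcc
Rpl6, chr5:121204461-121204530, plus strand: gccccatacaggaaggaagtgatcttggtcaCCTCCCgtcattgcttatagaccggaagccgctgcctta

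Within the printed stretch the run was 14 bases long in Rpl4, 11 in Rps12, Rpl28 and Rps18, and 6 in Rpl6. Over the full 50 bases either side of the start the longest run was 15 in Rpl4 and 11 in Rpl6. The printed run crossed the annotated start in Rpl28 and Rps18. In Rps12 it lay after the annotated start, and in Rpl4 and Rpl6 it ended before it. Whether the marked runs are the tract of the mRNA was not tested. RefSeq promoters were matched for 42 of the 53 members. A run of at least 8 C or T bases on the gene's strand within 50 bases of an annotated start was found in 34 of them (81.0%), against 38.5% of 15612 tested genes with a promoter. The mirror feature, a run of at least 8 A or G bases, was found in 23.8% of these members and 39.8% of all genes. Over the whole 300 bases and on either strand, CCGGAAG, the core bound by ETS family factors, stood in 38.1% of members and 13.6% of genes. For TATAAA the shares were 11.9% and 13.6%, for CACGTG, the E-box bound by Myc, 11.9% and 9.5%, and for AAGATGGC, bound by Yy1, 4.76% and 3.77%. These are matches of letters and were not tested as binding sites.

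The messages of the cytosolic ribosome differed little between knockout and wild-type skin. Of the 53 members 1 passed the threshold, Rpl29, which was higher in the knockout by 0.35 on the log2 scale, and 0 were lower. That is 1.89% of members, against 8.75% of all genes, of which 6.41% were higher and 2.34% lower. Of all genes called, 73.2% were higher in the knockout with the values as deposited, 56.5% after quantile normalization and 50.8% after cyclic loess. The threshold was an adjusted p of 0.05 from limma, with Benjamini-Hochberg adjustment over all 19935 genes. Unadjusted, 8 members had a p under 0.05, or 15.1%, against 25.1% of all genes.

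The differences of the members, knockout minus wild type, ran from -0.35 to 0.35. Their median was 0.05, beside 0.0027 over all genes and 0.11 over genes whose level was at or above the median, and 37 of 53 lay above 0. Their direction on balance is not settled, because it turns with the scaling between arrays. After quantile normalization the median was -0.037 with 21 members above 0, and after cyclic loess it was -0.055 with 15 above 0. The 97 other genes with a mean log2 intensity of at least 10 also shifted. Their median was 0.098 as deposited, with 64 above 0, then 0.0074 after quantile normalization and -0.0023 after cyclic loess. The small size of the members' differences does not rest on the scaling. The 95% confidence interval of the difference lay within 0.5 of 0 on either side for 49 members with the values as deposited, 47 after quantile normalization and 46 after cyclic loess. With the values as deposited 0 members differed by more than 0.5, where 9.20% of all genes did, and after cyclic loess 1 did.

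**Figure D1:**
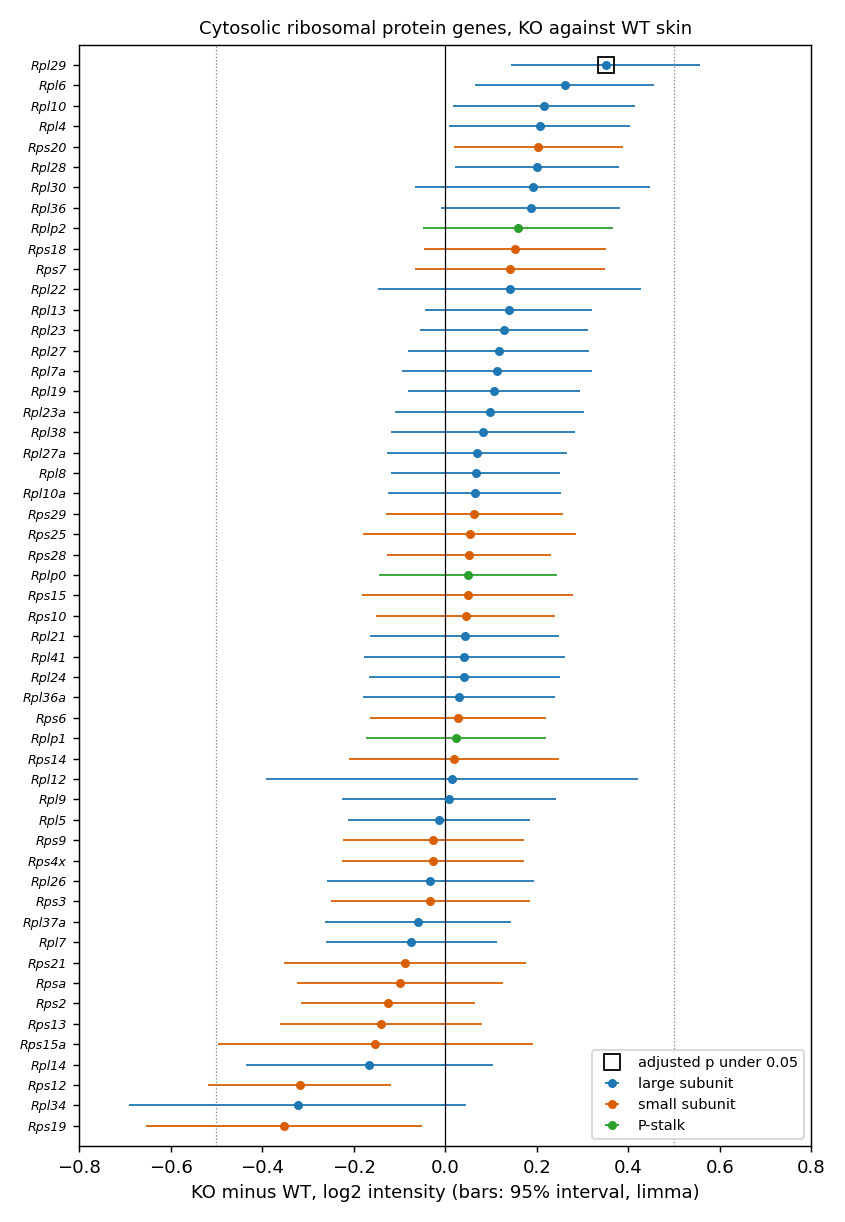
Knockout minus wild-type difference in log2 intensity (x axis) of each of the 53 ribosomal protein genes (y axis), with 95% intervals from limma over 4 knockout and 4 wild-type arrays, coloured by subunit, with dotted lines at 0.5 either side of 0. All points lie between -0.35 and 0.35, the square marks Rpl29 as the one gene past the threshold, and 49 intervals stay inside the dotted lines.

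Rpl29, a basic protein of the large subunit without which mice are viable but small, had 8.76, 8.75, 8.72 and 8.71 on knockout arrays 1 to 4, against 8.56, 8.27, 8.39 and 8.32 on wild-type arrays 1 to 4. All knockout values lay above all wild-type values, and the knockout arrays were close together (SD 0.03, against 0.13 in wild type). The difference of 0.35 (SE 0.09, limma adjusted p = 0.044) is a rise of 27.5%. The call is fragile. It held when wild-type array 1 was left out and was lost when any of the other 7 arrays was, with adjusted p between 0.063 and 0.12, and it was lost after quantile normalization (0.24, adjusted p = 0.13) and cyclic loess (0.20, adjusted p = 0.19). This gene was read from 1 probe set, and 35 further probe sets name Rpl29 beside other genes and were not used, so reads of near-identical copies by its probes were not tested.

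Rps12, a small-subunit protein that in Drosophila takes part in the elimination of ribosome-deficient cells, went the other way. Its values were 10.59, 10.67, 10.62 and 10.60 on knockout arrays 1 to 4, against 10.87, 10.84, 10.95 and 11.09 on wild-type arrays 1 to 4. The groups did not overlap, and the difference of -0.32 (SE 0.09) just missed the threshold, with a limma adjusted p of 0.055. It passed after quantile normalization (-0.43, adjusted p = 0.019) and cyclic loess (-0.42, adjusted p = 0.035), where Rpl29 did not. All 13 probe sets of Rps12 gave a negative difference, from -0.40 to -0.19, though 7 of them repeat one of 2 sets of values and so are not separate measurements. A further 4 probe sets name Rps12 beside other genes and were not used. Whether the remaining probe sets read near-identical copies was not tested.

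Rps19 and Rpl34 had differences as large as these but wider spread. Rps19, a small-subunit protein mutated in human Diamond-Blackfan anaemia, lay at 8.21, 8.22, 8.30 and 8.05 on knockout arrays 1 to 4, against 8.29, 8.39, 8.61 and 8.90 on wild-type arrays 1 to 4. The groups overlapped, wild-type array 4 was the high one, and the difference of -0.35 (SE 0.14) had a limma adjusted p of 0.14. Rpl34, of the large subunit, was at 6.68, 6.03, 6.20 and 6.75 in the knockouts, against 6.67, 6.69, 6.64 and 6.95 in wild type. Knockout arrays 2 and 3 were low and knockout arrays 1 and 4 lay among the wild-type values, with a difference of -0.32 (SE 0.17, limma adjusted p = 0.26).

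On the higher side stood a group of bright large-subunit genes and Rps20. Rpl6, a large-subunit protein, had 10.53, 10.69, 10.62 and 10.63 in the knockouts, against 10.39, 10.28, 10.30 and 10.46 in wild type. Its groups did not overlap, and the difference was 0.26 (SE 0.09, limma adjusted p = 0.097). The 3 probe sets of Rpl6 gave 0.22 to 0.26. Rpl28 had 11.25, 11.37, 11.33 and 11.32 in the knockouts, against 11.13, 11.11, 11.11 and 11.11 in wild type, a difference of 0.20 (SE 0.08, limma adjusted p = 0.15). Rps20, whose mutation darkens mouse skin, had 10.83, 10.91, 10.88 and 10.83 in the knockouts, against 10.74, 10.60, 10.62 and 10.68 in wild type, a difference of 0.20 (SE 0.08, limma adjusted p = 0.16). Neither of these overlapped between the groups. Rpl10, which joins the large subunit late in its assembly, averaged 11.86 ± 0.10 in the knockouts and 11.65 ± 0.06 in wild type (SD, n = 4), with no overlap and a limma adjusted p of 0.17.

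In all, 11 members had no overlap between the groups, 10 higher in the knockout and Rps12 lower. That is 20.8% of the members, against 18.1% of all genes. The share is near that background. The differences of these 11 ran in size from 0.05 for Rps28 to 0.35 for Rpl29, and over all 53 members 44 differed by less than 0.2. Rps28 had 9.41 ± 0.03 in the knockouts and 9.36 ± 0.04 in wild type, groups apart but a difference of 0.05. The 7 probe sets of Rps28 gave differences from -0.08 to 0.05, and only the kept one and its duplicate were positive.

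**Figure D2:**
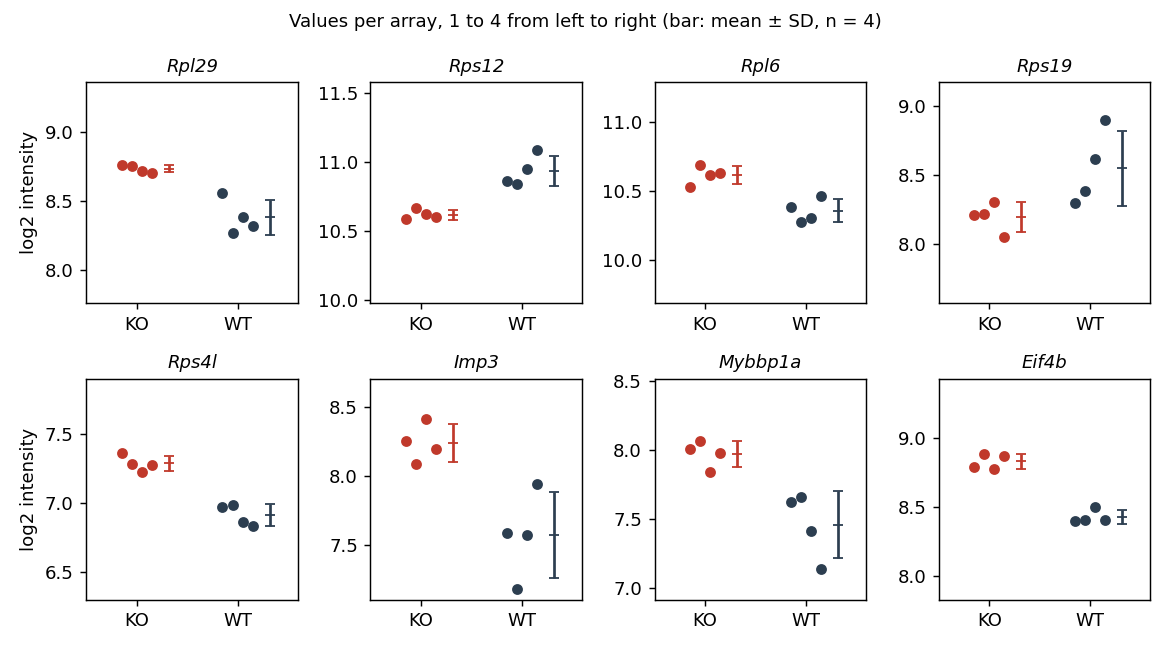
Log2 intensity (y axis) of each knockout and wild-type array, with mean ± SD of 4 arrays beside them, for Rpl29, Rps12, Rpl6, Rps19, the paralog Rps4l, the assembly factors Imp3 and Mybbp1a and the initiation factor Eif4b; each panel spans 1.6 log2 units. Knockout points lie above wild-type points in 6 of the 8 panels and below them for Rps12, and the groups overlap for Rps19.

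The large-subunit and small-subunit genes did not lean the same way with the values as deposited. The 30 large-subunit members had a median difference of 0.08 with 24 above 0, and the 20 small-subunit members a median of -0.0030 with 10 above 0. The medians of both sets in each array, relative to each gene's mean of all arrays, were 0.03, 0.0079, 0.05 and 0.10 for the large subunit and -0.02, 0.02, -0.02 and 0.03 for the small subunit on knockout arrays 1 to 4. On wild-type arrays 1 to 4 they were -0.05, -0.10, -0.06 and 0.01 for the large subunit and -0.02, -0.09, -0.02 and 0.10 for the small subunit. The gap between the subunits was thus widest on wild-type array 4, and its difference between the groups was not tested. The P-stalk, where elongation factors dock, comprised Rplp0 (0.05, limma adjusted p = 0.76), Rplp1 (0.02, 0.89) and Rplp2 (0.16, 0.32).

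Array by array, 2 wild-type samples set the extremes. The median member level was 10.53 to 10.66 on the knockout arrays, 10.39 on wild-type array 2 and 10.52 to 10.54 on the other wild-type arrays. Wild-type array 2 held the lowest of the 8 values for 33 of the 53 members. Wild-type array 4 held the highest value for 17 members, among them Rps12, Rps19, Rps15a and Rps21. Knockout array 4 came next with 13. Markers of other tissue were also high on wild-type array 4. As deviations from each gene's mean, the 16 skeletal muscle genes had a median of -0.79 to -0.60 on the knockout arrays, against 3.69 on wild-type array 4 and -0.76 to 0.71 on the other wild-type arrays. The 7 dermal fibroblast genes lay at -0.99 to -0.77 on the knockout arrays, against 3.41 on wild-type array 4 and -0.89 to 1.56 on the others. The 7 adipocyte genes lay at -0.60 to -0.40 on the knockout arrays, against 2.66 on wild-type array 4 and -0.44 to -0.30 on the others. Of 8 macrophage genes 5 fell (62.5%, against 2.34% of all genes), among them Lyz2 (-2.42), the lysozyme of these cells, and the complement gene C1qc (-1.17), with the list at -0.71 to -0.24 on knockout arrays and 0.31 to 0.94 on wild-type arrays. Of 10 keratinocyte genes 5 rose (50%, against 6.41% of all genes): the basal-layer integrins Itga6 (1.33) and Itgb4 (1.24), the desmosome gene Dsg3 (1.17) and the basal keratins Krt14 (0.63) and Krt5 (0.37). Krt10 (-0.17), Krt1 (-0.07) and Lor (-0.04), genes of the upper layers, did not pass, nor did Trp63 and Dsc3. The list lay at 0.13 to 0.33 on knockout arrays and -0.67 to -0.03 on wild-type arrays. Of 5 melanocyte genes the pigment-cell genes Mlana (1.01) and Pmel (0.66) rose (40%, against 6.41% of all genes). The list lay at -0.11 to 0.79 on knockout arrays and -0.60 to -0.14 on wild-type arrays. In the other marker lists 0 genes passed in limma, though 4 fibroblast, 3 mast cell and 2 muscle genes had an unadjusted p under 0.05. Those of fibroblasts did not all go 1 way: Dcn was higher in the knockout (0.48), while Fap, Col1a1 (-1.93) and Col3a1 (-2.24) were lower. The smallest p belonged to Acta1 (-2.40, adjusted p = 0.15) for muscle, Fap (-1.05, 0.088) for fibroblasts, Fabp4 (-2.23, 0.21) for adipocytes, Tpsb2 (-1.31, 0.15) for mast cells, Vwf (-0.27, 0.24) for endothelium, Cd79b (-0.20, 0.37) for lymphocytes and Slc4a1 (-0.32, 0.25) for erythroid cells. The part of these cells in the members' values was not tested, and in bulk tissue fewer cells of a type and less RNA per cell cannot be told apart. Without wild-type arrays 3 and 4 the median of the members was 0.095 and 0 of them passed.

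**Figure D3:**
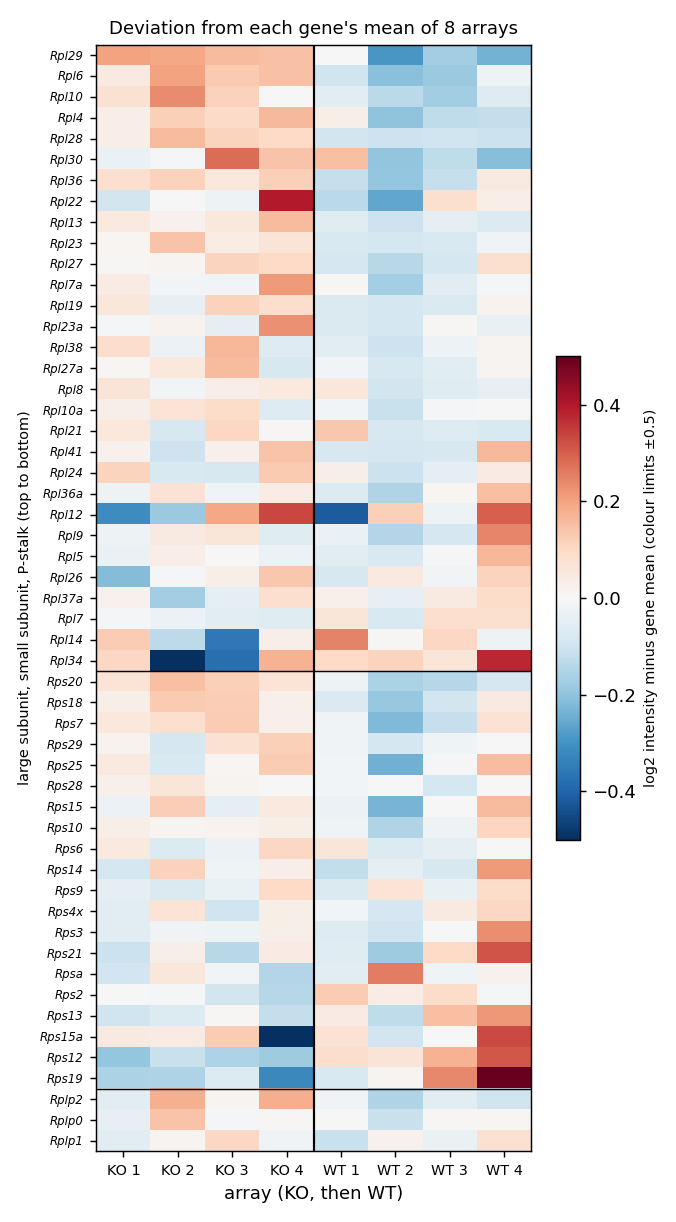
Log2 intensity of the 53 ribosomal protein genes (rows, large subunit, small subunit and P-stalk from top to bottom) on knockout and wild-type arrays (columns) as the deviation from each gene's mean of 8 arrays, with colours limited at 0.5 either side of 0. Wild-type array 2 is blue for most genes (lowest for 33), and wild-type array 4 is red for many small-subunit genes.

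The members were bright on these arrays and varied little. Of the 53 members 36 had a mean log2 intensity of at least 10, and 38 lay at or above the 99th percentile of all genes. The median residual SD was 0.08 for members, beside 0.18 for all genes. Among 97 other genes with a mean of at least 10, 20.6% passed the threshold, 18.6% higher and 2.06% lower, and 13.4% differed by more than 0.5, while 0 of the 36 members that bright did either. The median residual SD of the 97 other genes was 0.15. Of them 30.9% had no overlap between the groups, beside 25% of those 36 members. Signal of the brightest probe sets can be compressed on arrays, which was not tested.

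Rps18, of the small subunit's head, was among the 3 brightest with Rpl10 and Rplp0, at 11.72 ± 0.06 in the knockouts and 11.57 ± 0.10 in wild type (SD, n = 4, limma adjusted p = 0.31). Its groups overlapped.

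Only 3 members had a mean under 6. Rpl12, which binds at the base of the stalk, averaged 4.11 ± 0.31 in the knockouts and 4.10 ± 0.30 in wild type (SD, n = 4). Rplp2, a stalk protein, was at 4.28 ± 0.12 in the knockouts and 4.12 ± 0.06 in wild type. For Rpl30, of the large subunit, the means were 4.61 ± 0.14 in the knockouts and 4.42 ± 0.17 in wild type. They lie at the 44.4th, 45.9th and 51.0th percentile of all genes, and 8 further probe sets name Rpl12 and 10 name Rpl30 beside other genes, so how well these probe sets report their genes is not known. The largest spread within groups was that of Rpl12, Rpl34 and Rps15a, the last with 7.34, 7.34, 7.42 and 6.78 in the knockouts, against 7.37, 7.20, 7.29 and 7.62 in wild type.

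Further probe sets of the same genes gave similar sizes. The members had 207 probe sets of their own symbol, 38 members had more than 1 and the most was 13. The 154 that were not kept had differences from -0.40 to 0.24 with a median of 0.06. When all 35519 probe sets were tested together 0 of the 207 passed in limma, Rpl29 included (adjusted p = 0.076), where 1099 probe sets passed in all. The probe sets of 26 of the 38 genes agreed in sign, and within a gene the differences spread by a median of 0.09 and at most by 0.22. Of these probe sets 18 hold the same values as another of their gene and so are not separate measurements. They include all 3 of Rpl41, which counts among the 26 genes. Whether the probe sets of a gene read near-identical copies was not tested.

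Ribosomal proteins whose symbols fall outside the rule had 1 call among 8 measured (12.5%, against 8.75% of all genes). Fau, which is made as a fusion of a ubiquitin-like protein and a small-subunit protein, averaged 10.16 ± 0.03 in the knockouts and 10.16 ± 0.07 in wild type (SD, n = 4). Rps3a1 differed by -0.07 (limma adjusted p = 0.75) and Rpl7l1 by 0.05 (adjusted p = 0.73). Rps4l, a relative of the X-linked Rps4x, had 7.37, 7.28, 7.23 and 7.28 in the knockouts, against 6.98, 6.99, 6.86 and 6.84 in wild type. The groups stood apart, and Rps4l rose by 0.37 (SE 0.09, limma adjusted p = 0.027), while Rps4x itself differed by -0.03 (adjusted p = 0.88). Leaving out knockout array 1, 2 or 3 or wild-type array 3 ended this call, with adjusted p up to 0.084. It also ended after quantile normalization (0.24, adjusted p = 0.12) and cyclic loess (0.21, adjusted p = 0.16).

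The paralogs that replace a common ribosomal protein in particular tissues did not pass. Rpl3l, the skeletal muscle form of Rpl3, lay at 2.99, 2.95, 3.15 and 2.57 in the knockouts, against 2.64, 3.08, 2.97 and 3.94 in wild type, highest on the wild-type array with most muscle signal. Rpl39l, known from testis, lay at 1.55, 1.89, 1.41 and 1.62 in the knockouts, against 1.69, 1.69, 2.25 and 3.49 in wild type, with a limma adjusted p of 0.26. Its difference of -0.66 came to 0.0042 with the skeletal muscle list as a covariate. That covariate rests mostly on 1 array, with a list mean of 7.62 on wild-type array 4 and 3.82 to 5.29 on the others. The part of muscle in the Rpl39l values was not tested. Rpl3l, Rpl39l and Rpl10l were dim, with means of 3.04, 1.95 and 3.14, below the median of every array (3.73 to 3.92). Rpl10l, a testis copy of Rpl10, differed by -0.46 (limma adjusted p = 0.26) and Rps27l, a p53-induced relative of Rps27, by -0.26 (adjusted p = 0.28).

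Genes that assemble ribosomes lay mostly above 0. Of 47 assembly genes 5 rose and 0 fell, and 42 lay above 0, as did 6518 of 9968 genes at or above the median level. The 5 are 10.6% of the list, against 6.41% of all genes and 12.0% of genes at or above the median level called higher, and the list as a whole was not tested. The median difference was 0.28, beside 0.11 over genes at or above the median level. Imp3, which helps process the precursor of small-subunit RNA, had 8.25, 8.09, 8.41 and 8.19 in the knockouts, against 7.59, 7.18, 7.57 and 7.94 in wild type. It rose by 0.67 (SE 0.15, limma adjusted p = 0.026) with no overlap. Mybbp1a, a nucleolar Myb-binding protein, averaged 7.97 ± 0.09 in the knockouts and 7.46 ± 0.24 in wild type (SD, n = 4), and rose by 0.51 (SE 0.13, limma adjusted p = 0.034). The other rises were Grwd1 (0.47), a chaperone of ribosomal protein assembly, Sbds (0.42), which frees the large subunit of Eif6, and Nob1 (0.34), the nuclease that finishes small-subunit RNA. These 3 were named because the count is 5.

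The assembly rises depend on single arrays and on the scaling. After quantile normalization or cyclic loess 0 of the 47 passed, with 37 above 0 under either, and leaving out 1 array gave from 0 to 10 calls. The count was 0 when knockout array 1 was dropped, 1 for knockout array 2 or 3 and 3 for knockout array 4, and it was 10, 2 and 0 for wild-type arrays 1, 2 and 3. Dropping wild-type array 4 changed the count least in proportion. The list's median lay at 0.20, 0.14, 0.12 and 0.08 relative to the mean of all arrays on knockout arrays 1 to 4, against 0.06, -0.10, -0.13 and -0.35 on wild-type arrays 1 to 4, lowest where muscle and dermal markers were highest. The part of these tissues in the values of the assembly genes was not tested. Without wild-type arrays 3 and 4 the median difference of the assembly genes was 0.15 and 1 gene passed.

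**Figure D4:**
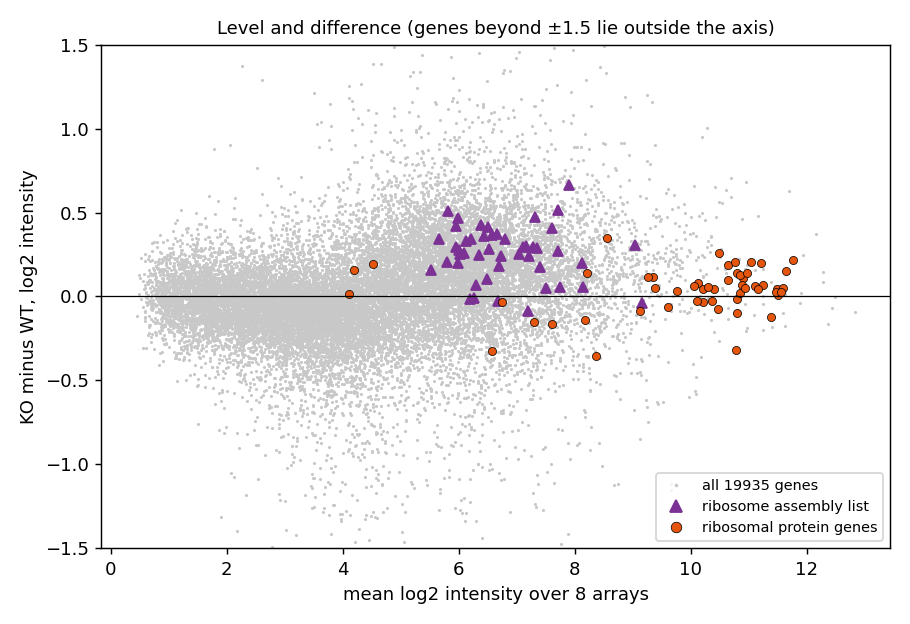
Knockout minus wild-type difference in log2 intensity (y axis) against the mean log2 intensity of 8 arrays (x axis) for all 19935 genes (grey), the 47 ribosome assembly genes (triangles) and the 53 ribosomal protein genes (circles); 100 genes lie beyond the y axis. Most circles sit at the bright end between -0.35 and 0.35, and 42 of 47 triangles lie above 0.

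Translation factors and the machinery that makes ribosomal RNA had 3 calls between them. Of 33 translation factors 29 lay above 0, with a median of 0.16. Among genes at or above the median level 6518 of 9968 did, with a median of 0.11. Of the translation factors 1 rose and 0 fell (3.03% called, against 8.75% of all genes). The one was Eif4b, which stimulates the helicase Eif4a and whose own mRNA carries a pyrimidine tract, with 8.79, 8.88, 8.78 and 8.87 in the knockouts, against 8.40, 8.41, 8.50 and 8.41 in wild type. It rose by 0.40 (SE 0.08, limma adjusted p = 0.017), and the call was lost after quantile normalization (0.30, adjusted p = 0.061) and cyclic loess (0.25, adjusted p = 0.099). It was also lost when knockout array 2 was left out (adjusted p = 0.066) or wild-type arrays 3 and 4 together (0.061). Of 15 genes of RNA polymerase I and its factors 2 were called (13.3%, against 8.75% of all genes). Ubtf, which opens ribosomal DNA for transcription, rose by 0.34 (SE 0.09, limma adjusted p = 0.040) and Taf1d, a subunit of its selectivity factor, fell by 0.77 (SE 0.17, limma adjusted p = 0.022). Ubtf lost its call without any 1 of the 8 arrays and after both quantile normalization (0.21) and cyclic loess (0.18). The call of Taf1d ended when knockout array 1, knockout array 2 or wild-type array 2 was left out, and its difference was -0.35 (adjusted p = 0.27) when all its probe sets were averaged.

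Mitochondrial ribosomal proteins, which serve the separate ribosome of that organelle, gave 0 calls among 77 genes in limma, against 8.75% of all genes, and 7 had an unadjusted p under 0.05, with 38 above 0 and a median of -0.000501. Their differences ran from -0.47 to 0.46, a wider range than that of the cytosolic members, but their typical size was no larger. The median size of the difference was 0.07 over the mitochondrial genes and 0.09 over the cytosolic members. In either set 0 genes differed by more than 0.5. The confidence interval lay within 0.5 of 0 for 89.6% of the mitochondrial genes and 92.5% of the members. The median residual SD was 0.14 for the mitochondrial genes, beside 0.08 for the members. Mrps5, of the small mitochondrial subunit, had the smallest p, with 6.19 ± 0.09 in the knockouts and 5.86 ± 0.08 in wild type (SD, n = 4) and a limma adjusted p of 0.051.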

How the data were processed

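The authors deposited 1 intensity per probe set and array, made with RMA (robust multi-array average: background correction, normalization between arrays and a summary over probes), per the submitters' processing notes; settings, version and build: not given in the sources used here. Array medians of 13.3 to 15.1 show a linear scale, so log2 was taken with no pseudocount. The table holds 35519 probe sets, of which 21780 carry 1 gene symbol in the platform annotation, 1605 several and 12134 none. For each gene the single-symbol probe set with the highest mean was kept (998 genes had more than 1), which gave 19935 genes with no filter on dim values. The groups were tested by limma 3.58.1 (R 4.3.3; lmFit with a genotype term, eBayes, two-sided, Benjamini-Hochberg over all genes, threshold 0.05). Differences are knockout minus wild type in log2. The fit was tested on simulated data. Arrays give no depth; their number limits the precision. Array values of different probe sets are not abundances and rank no gene against another. Promoter sequences are RefSeq's on GRCm38.p6, used for sequence only.

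The members and gene lists were chosen with earlier results of these data known. The genes named are Adam10, members called, the 6 members with the smallest p, the 3 highest, 3 lowest and 3 most variable members, all measured ribosomal proteins outside the symbol rule, and from each other list up to 2 rises and 2 falls or the smallest p. Other members were named after their values were seen. Alternatives were 3 normalizations, 2 filters, averaging probe sets, testing all probe sets, a pseudocount of 16, a trended robust prior, array weights, thresholds of 0.01 and 0.10, leaving out arrays, and covariates from the skeletal muscle list or genes of the Y chromosome.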

Additional observations from a re-analysis of the deposited data

Results flagged for a closer look

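In groups of 4 arrays, a value was picked out where its gap to the nearest of the others divided by the group's range exceeded Dixon's 95% critical value. Of 92 groups examined 8 had such a value, and chance gives about 1 in 20. Among the ribosomal proteins the median of the members was 10.39 on wild-type array 2, where the other wild-type arrays had 10.52 to 10.54. Rplp0 was at 11.49 on wild-type array 2, below 11.59 to 11.61 on the others. Rps15a was at 6.78 on knockout array 4, below 7.34 to 7.42 on the other knockouts. Rpl34 was at 6.95 on wild-type array 4, above 6.64 to 6.69.

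The remaining values belong to other genes. Adam10 was at 7.06 on wild-type array 3, below 7.33 to 7.39 on the other wild-type arrays and within 0.02 of the highest knockout. Snhg5, a host of small nucleolar RNAs, was at 7.15 on knockout array 3, above 6.70 to 6.72. Eif4b was at 8.50 on wild-type array 3, above 8.40 to 8.41. Tpsb2, a mast cell tryptase, was at 3.94 on knockout array 2, above 3.78 to 3.79.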

How the results depend on the processing

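Ribosomal proteins called higher (1 as reported) numbered 0 after quantile normalization or cyclic loess, over all probe sets, at a threshold of 0.01, without wild-type arrays 3 and 4 and with the muscle or Y chromosome covariate. They numbered 2 with genes at or above the median level (51 members left), a trended robust prior or a threshold of 0.10, 3 with array weights and 6 with a pseudocount of 16. Leaving out 1 array gave 0 to 1. Ribosomal proteins called lower (0 as reported) numbered 1, Rps12, under quantile normalization, cyclic loess, both filters, the pseudocount, the trended prior, array weights and the threshold of 0.10, and 0 without any 1 array. The members' median of 0.05 was -0.037 with quantile normalization, -0.055 with cyclic loess, 0.10 with median centring, 0.095 without wild-type arrays 3 and 4 and 0.11 with the muscle covariate, and 0.02 to 0.09 without 1 array. When all 35519 probe sets were tested, 1099 probe sets passed, among them the kept probe sets of 850 genes. Genes called overall (1744) numbered 3621 with array weights, 478 at 0.01, 2958 at 0.10 and 925 without wild-type arrays 3 and 4. Without 1 array they ran from 587 to 1997. Assembly genes called higher (5) numbered 0 with quantile normalization, cyclic loess or a threshold of 0.01, 1 over all probe sets, without wild-type arrays 3 and 4 or with the muscle covariate, 3 with the Y chromosome covariate, 8 with the pseudocount, 9 with genes at or above the median level, 10 at 0.10 and 14 with array weights. Their median of 0.28 was 0.13 with cyclic loess, 0.15 without wild-type arrays 3 and 4 and 0.13 with the muscle covariate, and 0.18 to 0.34 without 1 array. Translation factors called higher (1) numbered 0 with quantile normalization, cyclic loess, 0.01 or without wild-type arrays 3 and 4, 2 with the muscle covariate, 3 with median centring, 4 with the 25th percentile filter, the pseudocount or the trended prior, and 5 with genes at or above the median level, array weights or 0.10. Without 1 array they ran from 0 to 3. Adam10 passed with quantile normalization (-0.49), cyclic loess (-0.52), both filters (-0.36), the pseudocount (-0.32), the trended prior (-0.36) and the threshold of 0.10 (-0.36), and did not pass without any 1 array (-0.43 to -0.32). Filters test fewer genes, and the cause of the other changes was not tested. Of 1001 values of 44 single genes under alternatives, 99 lost a call, 42 gained one and 0 were called in the opposite direction. A further 6 without a call changed sign with a shift from the reported difference of at least the residual SD. The other 854 stayed on their side of the threshold without such a change of sign. No paired analysis was possible because the titles share no number between the groups.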

Other observations

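Among 23 genes of the mTOR and Myc list 17 lay above 0, 0 rose and 1 fell (4.35%, against 2.34% of all genes lower). The one was Eif4ebp1, the repressor of cap-dependent translation that mTOR inactivates, at 6.33, 6.38, 6.28 and 6.37 on knockout arrays 1 to 4, against 7.23, 6.81, 6.51 and 6.93 on wild-type arrays 1 to 4. The groups did not overlap, and Eif4ebp1 fell by 0.53 (SE 0.14, limma adjusted p = 0.043), a call that was lost without any 1 array other than wild-type array 3. The median of the list was 0.11, as it was over genes at or above the median level, of which 6518 of 9968 lay above 0.

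The p53 response, which rises when ribosomal proteins run short, had 1 rise and 0 falls among 15 measured genes (6.67% higher, against 6.41% of all genes), with a median of 0.0028. Phlda3, a p53-induced repressor of Akt, rose by 0.46 (SE 0.12, limma adjusted p = 0.043) with 6.66 ± 0.08 in the knockouts and 6.20 ± 0.23 in wild type (SD, n = 4). It lost its call without any 1 array other than wild-type array 1, and after quantile normalization (0.34, adjusted p = 0.12) and cyclic loess (0.31, adjusted p = 0.12). The other 14 genes did not pass. Of the small nucleolar RNA hosts 2 were measured, Snhg5 at 0.49 (limma adjusted p = 0.056) and Gas5 at -0.30 (adjusted p = 0.20).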
